A study of Arabidopsis thaliana with 24 samples.

Results

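The 9 genes described here encode Arabidopsis enzymes that split sucrose: the 6 sucrose synthases SUS1 (AT5G20830), SUS2 (AT5G49190), SUS3 (AT4G02280), SUS4 (AT3G43190), SUS5 (AT5G37180) and SUS6 (AT1G73370), the cytosolic invertases CINV1 (AT1G35580) and CINV2 (AT4G09510), and the cell-wall invertase cwINV1 (AT3G13790). They were chosen by name and locus and not by a rule on a measured value, but with earlier results of these data known. They make up 9 of the 32833 loci in the count tables. The study, whose title concerns the induction of lateral roots in the wild type and in a TOR knockdown, sequenced RNA from roots in 24 libraries, in 8 groups of 3. Seedlings of the wild type Col-0 and of amiR-TOR, a line that carries an artificial microRNA against the TOR kinase gene under a UB10 promoter, were moved at 7 days to 10 µM NPA for 24 h, then kept on NPA with 10 µM estradiol or with the solvent DMSO for another 24 h. They were then moved to 10 µM IAA, again with or without estradiol, or left on NPA, and roots were taken 6 h later. So the groups of each genotype are NPA, NPA with estradiol, IAA and IAA with estradiol, and every plant of every group, the controls included, had first spent the same time on NPA. Estradiol is the inducer of the artificial microRNA in amiR-TOR, and Col-0 with estradiol shows what the inducer did without it. The labels name 1 amiR-TOR line, and each library held about 200 pooled segments of the lower part of the root. Whether the 3 libraries of a group came from separate sowings is not given, so p-values measure only the spread between these pools.

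Sucrose arrives in roots through the phloem and has to be cleaved before cells can use its carbon. Sucrose synthases cleave it reversibly with UDP, giving UDP-glucose, a substrate of cell-wall and callose synthesis, and fructose. Invertases hydrolyse it irreversibly to glucose and fructose, in the cell wall (cwINV1), the cytosol (CINV1 and CINV2) or the vacuole, and glucose is known to activate TOR, the kinase that couples nutrient supply to growth. NPA blocks polar auxin transport and holds back lateral root founding, and the auxin IAA then starts it in many cells of the pericycle at once, with renewed cell division and growth.

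SUS1 and SUS4 are close copies, as are CINV1 and CINV2. The coding stretch around the longest identical run of each pair is therefore shown, to let a reader see how the copies differ there. Other stretches were not searched for closer likeness. Sequences are RefSeq's from the TAIR10.1 assembly, written 5′ to 3′ along the gene, and capitals mark the bases at which the copies of a pair differ.
SUS1 at chr5:7052790-7052877 on the minus strand: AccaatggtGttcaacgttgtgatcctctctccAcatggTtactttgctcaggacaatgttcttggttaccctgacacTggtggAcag
SUS4 at chr3:15181407-15181494 on the minus strand: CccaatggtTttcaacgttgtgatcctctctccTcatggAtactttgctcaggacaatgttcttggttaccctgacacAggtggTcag
CINV1 at chr1:13122467-13122571 on the minus strand: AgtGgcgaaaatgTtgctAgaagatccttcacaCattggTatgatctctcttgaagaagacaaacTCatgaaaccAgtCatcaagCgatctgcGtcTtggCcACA
CINV2 at chr4:6021316-6021420 on the minus strand: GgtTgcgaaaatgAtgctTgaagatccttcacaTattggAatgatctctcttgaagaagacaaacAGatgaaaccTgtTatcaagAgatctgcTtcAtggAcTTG
Over these 88 bases SUS1 and SUS4 differed at 6 positions, and their longest identical coding run was 38 bases. CINV1 and CINV2 differed at 17 of 105 bases, with a longest identical run of 25. None of the 36 pairs of the 9 genes shared an exact run of 50 exon bases, and no other annotated gene overlapped any of the 9. The read length is not given in the sources used here, so the share of reads that could have been assigned to the wrong copy of SUS1 and SUS4 was not measured.

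The libraries held 8589833 to 40494513 counts on genes. In 5 libraries over 20% of reads were unmapped (25.8 to 47.6%, against 1.56 to 12.0% in the other 19): Col-0 NPA replicate 1, Col-0 IAA replicate 1, Col-0 IAA with estradiol replicates 2 and 3, and amiR-TOR IAA with estradiol replicate 1. Calls that changed without them are given both ways. Leaving them out kept only replicate 1 of Col-0 IAA with estradiol. Values that use this group without them therefore rest on 1 library there and are given without a p-value. The target of the artificial microRNA behaved as the labels say. TOR went from 52.3 to 64.1 down to 21.9 to 33.3 CPM (counts scaled to TMM-normalised library size) with estradiol in amiR-TOR on NPA, and from 57.6 to 70.1 down to 24.6 to 27.9 CPM on IAA. It fell by 1.08 ± 0.15 (log2, SE) and by 1.27 ± 0.15, with edgeR adjusted p values of 2.37e-05 and 9.83e-06, and the values in Col-0 were 0.12 ± 0.15 and 0.29 ± 0.15. The 5 root markers were above 0 in every library, the endodermis genes CASP1 and SCR with at least 29.4 and 22.5 CPM, and the 2 seed genes were at 0 in all 24. The root markers moved with the treatments: their sum was 130.2 to 165 CPM in Col-0 on NPA, 85.3 to 106 CPM on IAA and 77.6 to 82.0 CPM on IAA plus estradiol, against 161 to 195, 128 to 134 and 143 to 175 CPM in amiR-TOR. With IAA, 3 of the 5 fell in Col-0, CASP1 and the root-hair genes EXP7 and COBL9, beside 32% of all loci tested. With estradiol 4 fell in Col-0, beside 29.3%. In amiR-TOR 2 fell and 1 rose with IAA, beside 23.5% lower and 29.3% higher, and with estradiol 2 fell, beside 18.6%. The part of such shifts between root tissues in the values below was not tested. The leaf gene RBCS1A, the small subunit of Rubisco, ranged from 2.63 to 89.5 CPM. With estradiol in amiR-TOR it was at 3.61 to 12.7 CPM on NPA, from 69.7 to 87.9 CPM without, and at 2.63 to 3.69 CPM on IAA, from 31.8 to 39.1.

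Per kilobase of exon, the scale on which genes can be set beside each other, cwINV1 was the most abundant of the 9 with a mean of 333 CPM per kb over the 24 libraries. CINV1 followed with 101, SUS1 with 20.9 and SUS3 with 16.1 CPM per kb. CINV2 had a mean level of 8.06, SUS6 of 4.58, SUS4 of 3.18 and SUS5 of 2.38 CPM per kb. SUS2, known from developing seeds, was lowest at 0.571 CPM per kb and rested on 15 to 80 reads a library. All 9 passed the filter on low counts. The widest span between groups was that of SUS4, whose highest group mean was 8.71 times its lowest, followed by SUS6 at 3.94 and cwINV1 at 3.74. CINV2 and SUS5 had the narrowest spans, 1.74 each. As the libraries are of whole root segments, fewer cells of a type and less RNA per cell cannot be told apart in any of these values.

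Each comparison below is a log2 fold change with its SE from 1 edgeR quasi-likelihood fit over all 24 libraries, with Benjamini-Hochberg adjustment over the 21290 loci tested, and a gene is called where the adjusted p is under 0.05. Most of the transcriptome differed between IAA and NPA, so counts of these genes have to be read against that. The IAA groups were also taken off NPA. What is called the IAA or auxin response here thus joins added IAA, loss of NPA and the move itself, which cannot be told apart. In Col-0 without estradiol, IAA raised 6 of the 9 genes, beside 31.3% of all loci tested called higher, and lowered 1, beside 32% called lower, 63.3% in all. In Col-0 with estradiol 3 rose, beside 29.9% called higher and 59.3% in either direction. In amiR-TOR without estradiol 6 rose, beside 29.3% higher and 52.8% in all. In amiR-TOR with estradiol 2 rose and 1 fell, beside 20.6% higher, 18.6% lower and 39.2% in all. The median log2 fold change of the 9 genes was 0.80, 0.19, 0.79 and 0.11 in these comparisons in that order, where the median of all loci lay between -0.04 and 0.02. The shares of the 9 genes called in either direction lay on both sides of those among all loci, so the counts by themselves set these genes little apart.

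Estradiol raised 3 of the 9 genes in Col-0 on NPA, beside 12.4% of all loci called higher, and lowered 2, beside 9.3% lower, 21.7% in all. On IAA it raised 1 in Col-0, beside 0.568% higher and 1.02% in all. In amiR-TOR on NPA, 4 rose, beside 20% higher, and 1 fell, beside 13% lower, 33% in all. On IAA 1 rose in amiR-TOR, beside 8.99% higher, and 2 fell, beside 9.9% lower, 18.9% in all. Without estradiol on NPA, 1 gene was higher in amiR-TOR than in Col-0, beside 10.7% of all loci, and 1 lower, beside 11.4%, 22.1% in all. On IAA 2 were higher, beside 8.52%, and 1 lower, beside 4.11%, 12.6% in all. These comparisons share groups: the NPA libraries of a genotype without estradiol serve as the control of the auxin, the estradiol and the genotype comparison alike. The values are therefore given side by side and not counted as repeats of each other.

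**Figure D1:**
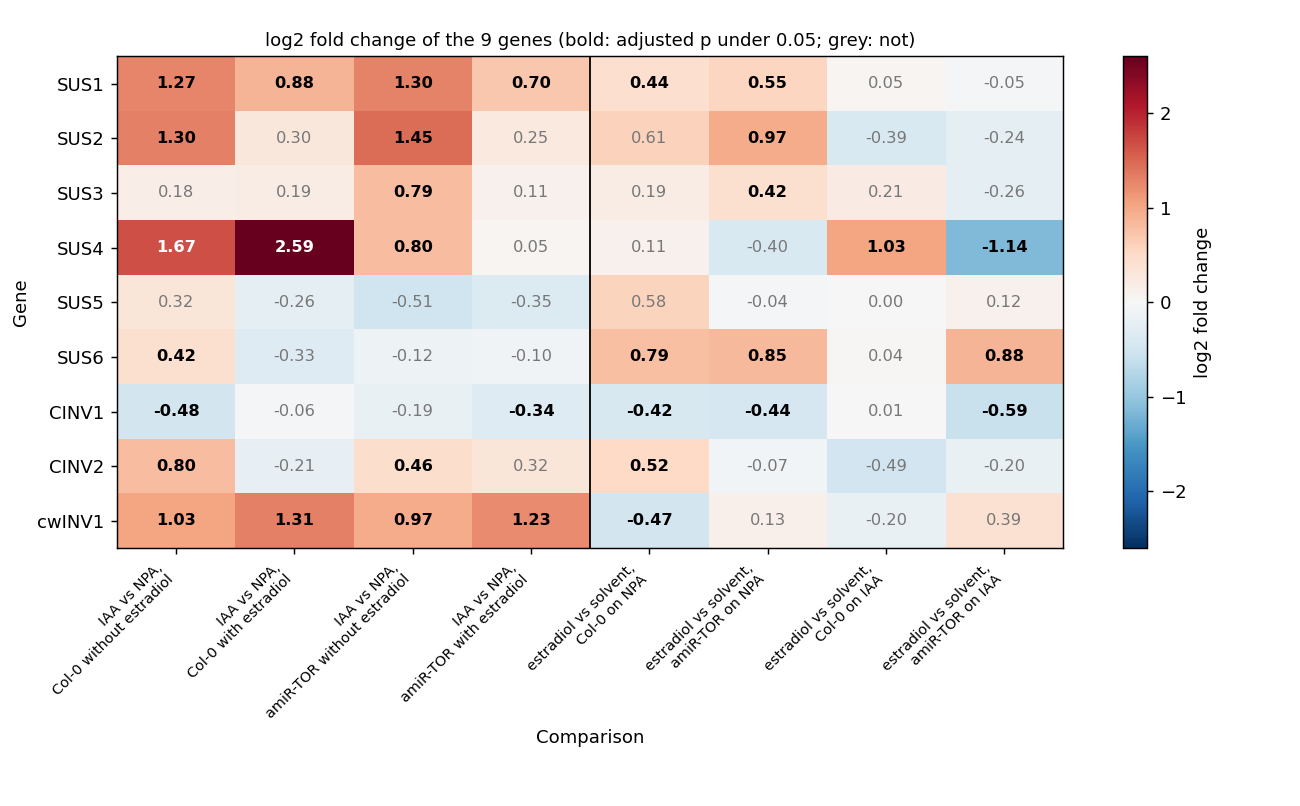
log2 fold change of each of the 9 genes (rows) in the 4 comparisons of IAA with NPA and the 4 of estradiol with solvent (columns), bold where the adjusted p is under 0.05 and grey where it is not. SUS4 spans the widest range, from 2.59 for IAA in Col-0 with estradiol to -1.14 for estradiol in amiR-TOR on IAA, while SUS1 and cwINV1 are positive and bold in all 4 auxin columns.

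SUS1, with SUS4 the main pair of cytosolic sucrose synthases in vegetative tissue, rose with IAA in every background. In Col-0 it had 38.7, 40.1 and 45.3 CPM on NPA and 93.9, 102 and 103 CPM on IAA. With estradiol the Col-0 values were 53.8, 54.2 and 60.5 CPM on NPA and 83.6, 99.01 and 127 CPM on IAA. In amiR-TOR they were 44.9, 42.7 and 45.1 CPM on NPA against 111, 116 and 99.2 CPM on IAA, and with estradiol 75.5, 58.1 and 60.7 CPM against 93.6, 116 and 105 CPM. No IAA library overlapped an NPA library of any group, and the 4 IAA groups overlapped each other. The fold change was 1.27 ± 0.13 in Col-0, 2.41-fold on the linear scale (edgeR adjusted p = 9.25e-09), and 1.30 ± 0.13 in amiR-TOR (edgeR adjusted p = 1.11e-08). With estradiol it was 0.88 ± 0.13 in Col-0 and 0.70 ± 0.12 in amiR-TOR, both called. The Col-0 value was 0.57 without the 5 libraries of many unmapped reads.

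Estradiol raised SUS1 on NPA in both genotypes, by 0.44 ± 0.13 in Col-0 (edgeR adjusted p = 0.0153) and by 0.55 ± 0.13 in amiR-TOR (edgeR adjusted p = 0.00194). The difference between those 2 responses was 0.11, with a 95% interval of -0.24 to 0.46, and was not called. On IAA estradiol gave 0.05 ± 0.12 in Col-0 and -0.05 ± 0.12 in amiR-TOR. The auxin response of SUS1 in amiR-TOR was smaller with estradiol than without by 0.60 ± 0.18 (edgeR adjusted p = 0.0319), and the same difference in Col-0 was -0.39 ± 0.18 (edgeR adjusted p = 0.157). The Col-0 estradiol call was lost without Col-0 NPA with estradiol replicate 3 (0.39, edgeR adjusted p = 0.0816) or Col-0 NPA replicate 2 (0.42, edgeR adjusted p = 0.0502). The amiR-TOR difference was lost without NPA replicate 1 or 2, NPA with estradiol replicate 1, IAA replicate 1 or 2, or IAA with estradiol replicate 1 of that line (-0.62 to -0.48, edgeR adjusted p = 0.057 to 0.1) and with unstranded counts (-0.55, edgeR adjusted p = 0.056). The Col-0 difference was called without Col-0 IAA with estradiol replicate 3 (-0.57, edgeR adjusted p = 0.0316). It was -0.67 without the 5 libraries of many unmapped reads, with 1 library left in Col-0 IAA with estradiol.

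SUS4, the copy of SUS1 that is best known for its induction in oxygen-poor roots, had the widest span among the 9 genes, and on IAA estradiol moved it in opposite directions in the genotypes. In Col-0 it had 4.77, 4.37 and 4.95 CPM on NPA and 6.21, 4.80 and 4.30 CPM on NPA with estradiol. On IAA the Col-0 values were 12.1, 16.0 and 16.6 CPM, and on IAA with estradiol 29.3, 28.9 and 33.3 CPM. Each IAA library of Col-0 lay above all NPA libraries, and on IAA each with estradiol lay above all without. In amiR-TOR, SUS4 had 4.04, 4.19 and 5.54 CPM on NPA and 3.93, 2.46 and 4.12 CPM on NPA with estradiol. On IAA the amiR-TOR values were 5.99, 9.86 and 8.47 CPM, and on IAA with estradiol 2.73, 4.64 and 3.43 CPM. The induced amiR-TOR libraries on IAA thus lay within the range of the NPA libraries, below every uninduced one on IAA.

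IAA raised SUS4 3.19-fold in Col-0 (log2 1.67 ± 0.21, edgeR adjusted p = 4.02e-07) and 6.03-fold in Col-0 with estradiol (2.59 ± 0.21, edgeR adjusted p = 4.75e-10). In amiR-TOR the rise was 1.74-fold without estradiol (0.80 ± 0.22, edgeR adjusted p = 0.00454). With estradiol the amiR-TOR value was 0.05, with a 95% interval of -0.39 to 0.49. The order of the 8 groups put Col-0 IAA with estradiol first, Col-0 IAA next and amiR-TOR IAA after it, and these did not overlap each other, while amiR-TOR IAA and the other 5 groups overlapped their neighbours in rank.

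On IAA, estradiol raised SUS4 by 1.03 ± 0.20 in Col-0 (2.04-fold, edgeR adjusted p = 0.01) and lowered it by 1.14 ± 0.22 in amiR-TOR (2.21-fold, edgeR adjusted p = 0.00103). The difference between the genotypes in that response was -2.17 ± 0.30 (edgeR adjusted p = 0.000118). In this comparison of responses on IAA, 1 of the 9 genes was called higher, beside 4.44% of all loci, and 2 lower, beside 4.73%, 9.17% in all. The SUS4 difference was called in every alternative fit in which each group kept at least 2 libraries, leaving out each library included. It was -1.84 without the 5 libraries of many unmapped reads, with 1 library left in Col-0 IAA with estradiol. The Col-0 rise alone was less firm. Its call was lost without Col-0 IAA replicate 1 (0.91, edgeR adjusted p = 0.0809) or Col-0 IAA with estradiol replicate 3 (0.97, edgeR adjusted p = 0.0546). The rise was 0.86 without those 5 libraries. On NPA the SUS4 responses to estradiol were 0.11 ± 0.22 in Col-0 and -0.40 ± 0.23 in amiR-TOR, and their difference, -0.51 ± 0.32, was not called. Of the 9 genes, 0 were called for a genotype difference in the estradiol response on NPA by edgeR or by DESeq2. An unadjusted edgeR p under 0.05 was found for 2 of them, but the share of all loci at that limit was not computed. Of all loci edgeR called 2.62%, 1.24% higher and 1.38% lower. These were 558 loci, where DESeq2 called 1069.

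Without estradiol, SUS4 on IAA was already lower in amiR-TOR than in Col-0 by 0.91 ± 0.21 (edgeR adjusted p = 0.00641), and on NPA the difference was -0.03 ± 0.22. The test of whether uninduced amiR-TOR responded less to IAA gave -0.88 ± 0.31 for SUS4 (edgeR adjusted p = 0.114). In that comparison 0 of the 9 genes were called by edgeR or by DESeq2. An unadjusted edgeR p under 0.05 was found for 4 of them, again with no share of all loci at that limit to set beside it. Of all loci edgeR called 2.98%, 1.41% higher and 1.56% lower. These were 634 loci, where DESeq2 called 1259. In Col-0 the auxin response of SUS4 was larger with estradiol than without by 0.92 ± 0.30 (edgeR adjusted p = 0.0463), 1 gene called higher beside 4.49% of all loci, with CINV2 the 1 called lower beside 6.73%, 11.2% in all. That call was lost without any 1 of 10 of the 12 Col-0 libraries, all but NPA with estradiol replicate 1 and IAA replicate 2 (0.80 to 1.01, edgeR adjusted p = 0.0544 to 0.126). It was also lost with no filter on low counts (0.91, edgeR adjusted p = 0.0512) and with the replicate block (0.92, edgeR adjusted p = 0.0516). The difference was 0.74 without the 5 libraries of many unmapped reads. The full 3-way difference between genotype, estradiol and auxin for SUS4 was -1.66 ± 0.43 (edgeR adjusted p = 0.0826). In the 3-way comparison edgeR called 0 of the 9 genes and 0.719% of all loci (0.357% higher, 0.362% lower). An unadjusted edgeR p under 0.05 was found for 5 of the 9, and here too the share of all loci at that limit was not computed. DESeq2 called SUS4 alone of the 9 (-1.69 ± 0.45, DESeq2 adjusted p = 0.0165). It also called more of all loci, 373 against 153 by edgeR. The edgeR call of SUS4 was gained without amiR-TOR NPA with estradiol replicate 2 or amiR-TOR IAA with estradiol replicate 2 (-1.88 in each, edgeR adjusted p = 0.0271 and 0.0448).

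**Figure D2:**
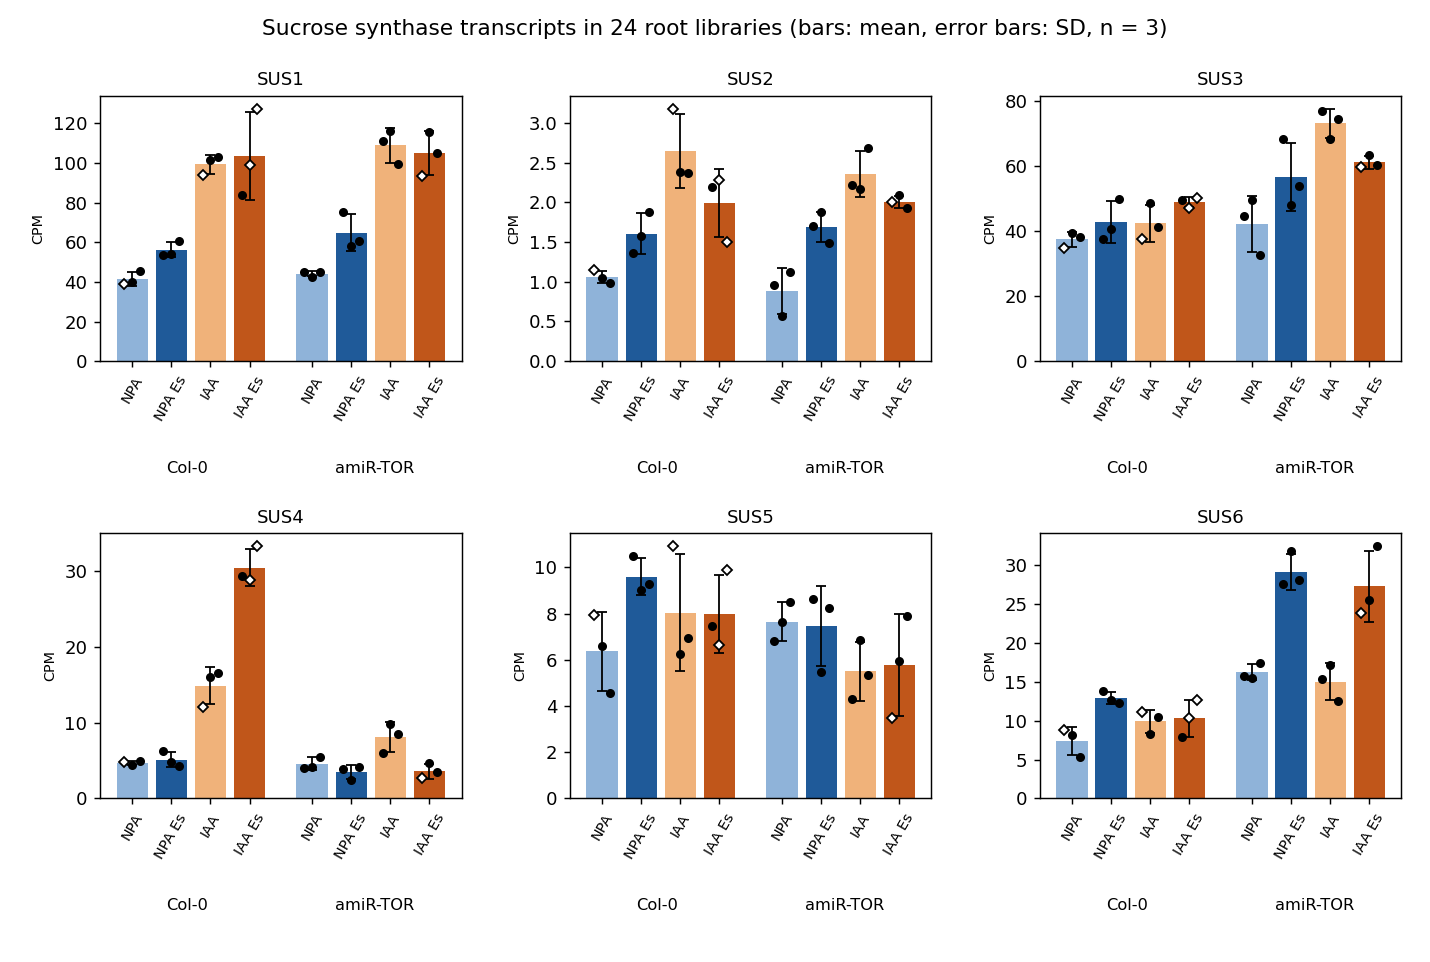
CPM of the 6 sucrose synthases in the 8 groups (bars, mean; error bars, SD, n = 3; dots, libraries; open diamonds, the 5 libraries with over 20% unmapped reads). SUS4 reaches 28.9 to 33.3 CPM in Col-0 on IAA with estradiol and 2.73 to 4.64 in amiR-TOR under the same treatment, SUS1 rises with IAA in all backgrounds, and SUS6 is highest in the induced amiR-TOR groups.

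Low oxygen genes were measured beside SUS4, as a list of 7 core hypoxia genes. Of these, 6 rose with IAA in Col-0, with a median log2 change of 1.56, beside 31.3% of all loci. In amiR-TOR 3 rose, with a median of 0.64, beside 29.3% of all loci. With estradiol 5 rose in Col-0, beside 29.9%, and 3 in amiR-TOR, beside 20.6%. Their summed level was 66.2 to 81.7 CPM in Col-0 on NPA and 200.1 to 208 CPM on IAA, and 238 to 284 CPM on IAA plus estradiol. The amiR-TOR sums were 67.7 to 87.5 CPM on NPA, 173 to 177 CPM on IAA, and 132 to 154 CPM on IAA with estradiol. The sums thus separated the genotypes on IAA both with and without estradiol. Between the uninduced genotypes on IAA, however, 0 of the 7 genes were called, and their median was -0.05. Of all loci 8.52% were called higher and 4.11% lower there. Gene by gene, estradiol lowered 1 of the 7 on IAA in amiR-TOR, LBD41, beside 9.9% of all loci, and raised 0, beside 8.99%. For the genotype difference in the estradiol response on IAA, 1 was called, PCO1, lower, beside 4.73% of all loci. The median of the 7 there was -0.72. ADH1, the alcohol dehydrogenase that defines fermentation in oxygen-poor roots, was not called for IAA in any background (-0.05 ± 0.21 in Col-0), and stayed between 5.83 and 12.1 CPM in all 24 libraries. LBD41, a transcription factor of the LOB family, had 15.0 to 22.4 CPM in Col-0 on NPA and 110.4 to 124 CPM on IAA. PCO1 (AT5G15120), a cysteine oxidase that marks proteins for oxygen-dependent breakdown, had the pattern across the libraries most like that of SUS4 of all loci tested outside the family (Pearson r = 0.92 of log2(CPM + 1), n = 24). PCO1 had 5.87, 4.78 and 6.24 CPM in Col-0 on IAA and 10.0, 10.0 and 9.42 CPM with estradiol, against 3.38, 4.21 and 4.77 CPM and 3.21, 2.56 and 1.72 CPM in amiR-TOR. As it was singled out for this likeness, its own differences between groups add no independent evidence on SUS4. Whether oxygen supply had a part in the SUS4 values was not tested.

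**Figure D3:**
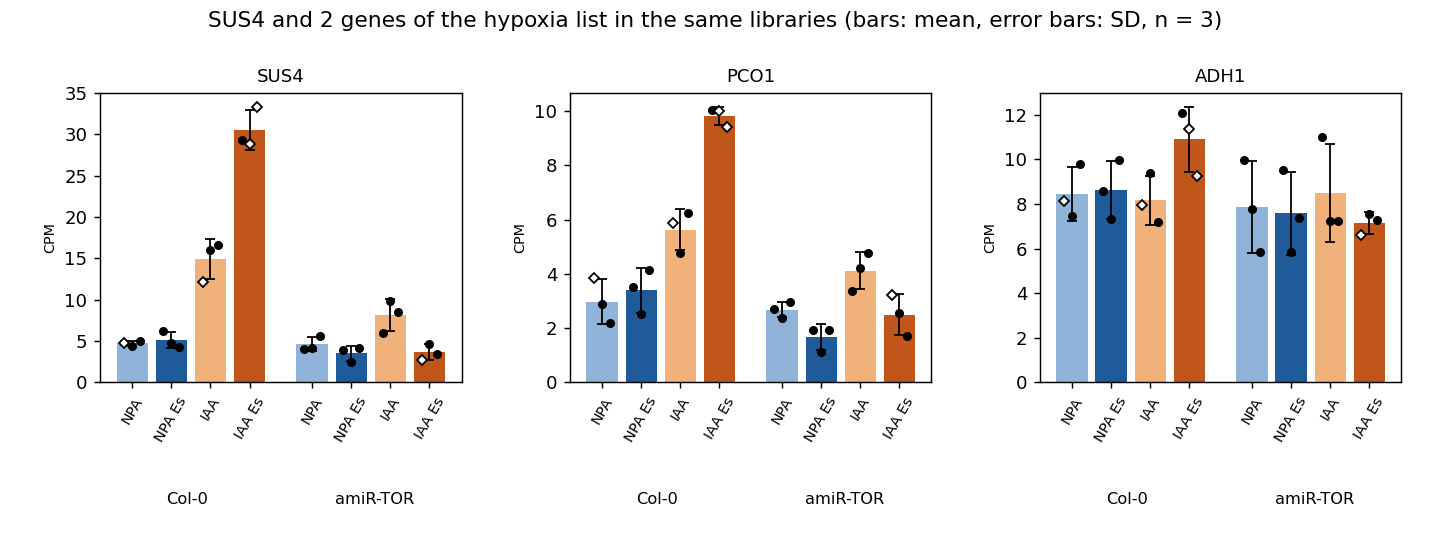
CPM of SUS4, PCO1 and ADH1 in the same libraries (bars, mean; error bars, SD, n = 3; dots, libraries; open diamonds, libraries with over 20% unmapped reads). SUS4 and PCO1 peak in Col-0 on IAA with estradiol, at 28.9 to 33.3 and 9.42 to 10.0 CPM, and ADH1 lies between 5.83 and 12.1 CPM in all groups.

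SUS2 and SUS3 form another branch of the family that is best known from seeds. SUS2 had 1.15, 1.04 and 0.990 CPM in Col-0 on NPA and 3.18, 2.39 and 2.37 CPM on IAA. In amiR-TOR it had 0.961, 0.569 and 1.13 CPM on NPA and 2.22, 2.17 and 2.69 CPM on IAA. IAA raised SUS2 by 1.30 ± 0.26 in Col-0 and 1.45 ± 0.27 in amiR-TOR (edgeR adjusted p = 0.000133 and 0.000102), with no overlap of the groups. With estradiol the IAA values were 0.30 ± 0.25 in Col-0 and 0.25 ± 0.24 in amiR-TOR, neither called. Estradiol on NPA raised SUS2 in amiR-TOR to 1.70, 1.88 and 1.49 CPM, by 0.97 ± 0.27 (edgeR adjusted p = 0.00839), and the Col-0 value was 0.61 ± 0.26 (edgeR adjusted p = 0.0965). The auxin response of SUS2 in amiR-TOR was smaller with estradiol by 1.21 ± 0.37 (edgeR adjusted p = 0.0376), and the same difference in Col-0 was -0.998 ± 0.36 (edgeR adjusted p = 0.0725). SUS1, SUS2 and SUS3 were the 3 of the 9 genes called in this amiR-TOR comparison, all lower, beside 7.58% of all loci lower and 9.57% in all. The estradiol call of SUS2 was lost without amiR-TOR NPA replicate 2 (0.69, edgeR adjusted p = 0.0812), and the difference in auxin response without 9 of the 12 amiR-TOR libraries, all but NPA replicate 3, NPA with estradiol replicate 3 and IAA replicate 2 (-1.29 to -0.94, edgeR adjusted p = 0.0559 to 0.146). That difference was also lost with no filter on low counts, with the replicate block and with only the groups compared (-1.21 to -1.16, edgeR adjusted p = 0.0531 to 0.0603).

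SUS3 rose with IAA in uninduced amiR-TOR, from 44.6, 49.4 and 32.8 CPM on NPA to 76.9, 68.3 and 74.4 CPM, by 0.79 ± 0.14 (edgeR adjusted p = 4.21e-05). The Col-0 libraries had 34.9, 39.5 and 38.1 CPM on NPA and 37.5, 48.6 and 41.2 CPM on IAA, which overlapped (0.18 ± 0.14). On IAA without estradiol SUS3 was higher in amiR-TOR than in Col-0 by 0.79 ± 0.14 (edgeR adjusted p = 0.000642), and no library of one group reached the other. The difference in the auxin response itself was 0.61 ± 0.20 (edgeR adjusted p = 0.0813), called without Col-0 IAA replicate 2 (0.72, edgeR adjusted p = 0.0409). With estradiol amiR-TOR had 68.3, 48.1 and 53.7 CPM on NPA and 59.7, 63.4 and 60.4 CPM on IAA. The estradiol response of SUS3 in amiR-TOR on NPA was 0.42 ± 0.14 (edgeR adjusted p = 0.0218), although the groups overlapped, and it was 0.27 without NPA with estradiol replicate 1 or without NPA replicate 3 (edgeR adjusted p = 0.16 and 0.152), and was also lost with unstranded counts (0.35, edgeR adjusted p = 0.0581) and with only the groups compared (0.36, edgeR adjusted p = 0.186). The auxin response in amiR-TOR was smaller with estradiol by 0.68 ± 0.19 (edgeR adjusted p = 0.0267). That call was lost without amiR-TOR NPA replicate 3, NPA with estradiol replicate 1, IAA replicate 1 or 3, or IAA with estradiol replicate 1 (-0.68 to -0.53, edgeR adjusted p = 0.0547 to 0.0879), and without the 5 libraries of many unmapped reads (-0.66, edgeR adjusted p = 0.071) or with only the groups compared (-0.63, edgeR adjusted p = 0.0763).

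SUS5 and SUS6 belong to the branch that is known from phloem sieve elements, where they are tied to callose. All amiR-TOR libraries lay above the Col-0 libraries of the same treatment in SUS6. In Col-0 it had 8.76, 8.13 and 5.33 CPM on NPA and 13.8, 12.6 and 12.3 CPM on NPA with estradiol. In amiR-TOR it had 15.8, 15.5 and 17.5 CPM on NPA and 27.6, 31.9 and 28.2 CPM on NPA with estradiol. The 4 NPA groups did not overlap, and each amiR-TOR group lay above its Col-0 counterpart. Uninduced amiR-TOR exceeded Col-0 2.18-fold on NPA (1.12 ± 0.18, edgeR adjusted p = 0.000192). Estradiol raised SUS6 by a similar amount in each genotype on NPA, 0.79 ± 0.18 in Col-0 (edgeR adjusted p = 0.00373) and 0.85 ± 0.17 in amiR-TOR (edgeR adjusted p = 0.000599). The difference of these 2 responses was 0.06, with a 95% interval of -0.42 to 0.54.

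On IAA, Col-0 had 11.1, 8.27 and 10.4 CPM of SUS6 without estradiol and 7.85, 10.3 and 12.7 CPM with it. The amiR-TOR values were 15.4, 17.2 and 12.6 CPM and, with estradiol, 23.9, 25.6 and 32.5 CPM. Estradiol thus separated the groups on IAA in amiR-TOR, by 0.88 ± 0.17 (edgeR adjusted p = 0.00115), and gave 0.04 ± 0.18 in Col-0. The difference was 0.84 ± 0.25 (edgeR adjusted p = 0.037). It was 1.22 without the 5 libraries of many unmapped reads, with 1 library left in Col-0 IAA with estradiol. The call was lost without Col-0 IAA replicate 1 or 3, Col-0 IAA with estradiol replicate 1 or 2, amiR-TOR IAA replicate 1 or 3, or amiR-TOR IAA with estradiol replicate 3 (0.67 to 0.85, edgeR adjusted p = 0.0643 to 0.119). It was also lost with the replicate block (0.83, edgeR adjusted p = 0.0513) and with only the groups compared (0.83, edgeR adjusted p = 0.0813). On IAA without estradiol amiR-TOR exceeded Col-0 by 0.58 ± 0.18 (edgeR adjusted p = 0.0355), lost without Col-0 IAA replicate 2 or 3 or amiR-TOR IAA replicate 1 or 2 (0.47 to 0.63, edgeR adjusted p = 0.0727 to 0.145) and with only the groups compared (0.59, edgeR adjusted p = 0.0525). The IAA rise of SUS6 in Col-0, 0.42 ± 0.18, lay at the threshold (edgeR adjusted p = 0.0497), with overlapping groups, and was lost without Col-0 NPA replicate 3, Col-0 IAA replicate 1 or Col-0 IAA replicate 3 (0.24 to 0.38, edgeR adjusted p = 0.133 to 0.273). It was also lost without the 5 libraries of many unmapped reads (0.45, edgeR adjusted p = 0.0534), with no filter, unstranded counts, the replicate block and only the groups compared (0.38 to 0.44, edgeR adjusted p = 0.0562 to 0.0982). With estradiol the IAA value of SUS6 in Col-0 was -0.33 ± 0.18. It was called as a fall without Col-0 IAA with estradiol replicate 3 (-0.51, edgeR adjusted p = 0.0259) and with a covariate for the 5 libraries (-0.47, edgeR adjusted p = 0.0401). Without the 5 libraries of many unmapped reads it was -0.72. The auxin response of SUS6 in Col-0 differed with estradiol by -0.75 ± 0.25 (edgeR adjusted p = 0.057). This difference was called without Col-0 NPA replicate 1, Col-0 IAA replicate 2 or Col-0 IAA with estradiol replicate 3 (-0.93 to -0.86, edgeR adjusted p = 0.027 to 0.0325). DESeq2 (-0.74, DESeq2 adjusted p = 0.0332) and the covariate (-0.90, edgeR adjusted p = 0.0255) called it too. Without the 5 libraries it was -1.17.

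SUS5 was not called in any of the 16 comparisons. Its libraries ranged from 3.49 to 10.9 CPM, with a median of 7.20 CPM, and all 8 groups overlapped their neighbours in rank. The highest group mean with estradiol on NPA in Col-0 was 9.59 ± 0.798 CPM (SD, n = 3), and the lowest 5.49 ± 1.29 CPM in amiR-TOR on IAA. The estradiol response on NPA in Col-0 was 0.58 with a 95% interval of 0.07 to 1.095, and it was called without the 5 libraries of many unmapped reads (0.76, edgeR adjusted p = 0.0172). The IAA value in amiR-TOR, -0.51 ± 0.28, was likewise called without them (-0.53, edgeR adjusted p = 0.0388) and with only the groups compared (-0.57, edgeR adjusted p = 0.0208). The 7 phloem markers summed to 187 to 194 CPM in Col-0 on NPA and 227 to 256 CPM with estradiol, and to 150.4 to 192 CPM and 173 to 183 CPM in amiR-TOR. On IAA their sums were 133 to 143 CPM and 139 to 185 CPM in Col-0, and 100.1 to 115 CPM and 122 to 148 CPM in amiR-TOR. The mean sum was therefore lower in amiR-TOR than in Col-0 under each treatment. The sums of the genotypes overlapped on NPA and on IAA with estradiol, but not on NPA with estradiol or on IAA alone. None of the 7 was at 0 in any library. Estradiol raised 3 of the 7 in Col-0 on NPA, with a median of 0.58, beside 12.4% of all loci. In amiR-TOR on NPA it raised 1, with a median of 0.02, beside 20%. On IAA it raised 2 in amiR-TOR, with a median of 0.44, beside 8.99%, and 0 in Col-0, with a median of 0.42, beside 0.568%. In these comparisons 0 fell. Among those raised in Col-0 on NPA were SEOR1 and SEOR2, structural proteins of sieve elements, by 0.65 ± 0.15 and 1.05 ± 0.20 (edgeR adjusted p = 0.00473 and 0.00115). In amiR-TOR on NPA they gave -0.20 ± 0.15 and 0.02 ± 0.20. Between the uninduced genotypes on NPA, 1 of the 7 was lower in amiR-TOR, beside 11.4% of all loci. This was SUC2, the sucrose carrier of companion cells, by 0.87 ± 0.14 (edgeR adjusted p = 0.000284), and the median of the 7 was 0.16. The part of the phloem in the SUS6 values was not tested.

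As shares of the summed sucrose synthase level per kilobase, SUS1 and SUS3 made up most of the transcripts in every group. In Col-0 on NPA, SUS3 held 40.9% ± 1.85 (SD, n = 3) and SUS1 38.1% ± 2.98, and on IAA SUS1 held 51.8% ± 0.836 and SUS3 26.1% ± 2.51. SUS4 went from 5.46% ± 0.405 on NPA to 9.76% ± 1.24 on IAA and 17.4% ± 1.095 on IAA with estradiol in Col-0. In amiR-TOR the SUS4 share was 4.57% ± 1.04 on NPA, 4.43% ± 1.05 on IAA and 2.05% ± 0.411 on IAA with estradiol. SUS6 held 17.6% ± 3.32 in amiR-TOR on NPA with estradiol, and 4.87% ± 0.596 in Col-0 on IAA with estradiol. The summed level rose from 29.2 ± 0.539 CPM per kb in Col-0 on NPA to 51.5 ± 2.27 on IAA, and from 34.3 ± 1.61 to 62.1 ± 2.45 in amiR-TOR. With estradiol on IAA the sums of the genotypes were alike, at 59.8 ± 7.95 and 59.1 ± 4.84 CPM per kb, while the SUS4 and SUS6 shares within them did not overlap.

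**Figure D4:**
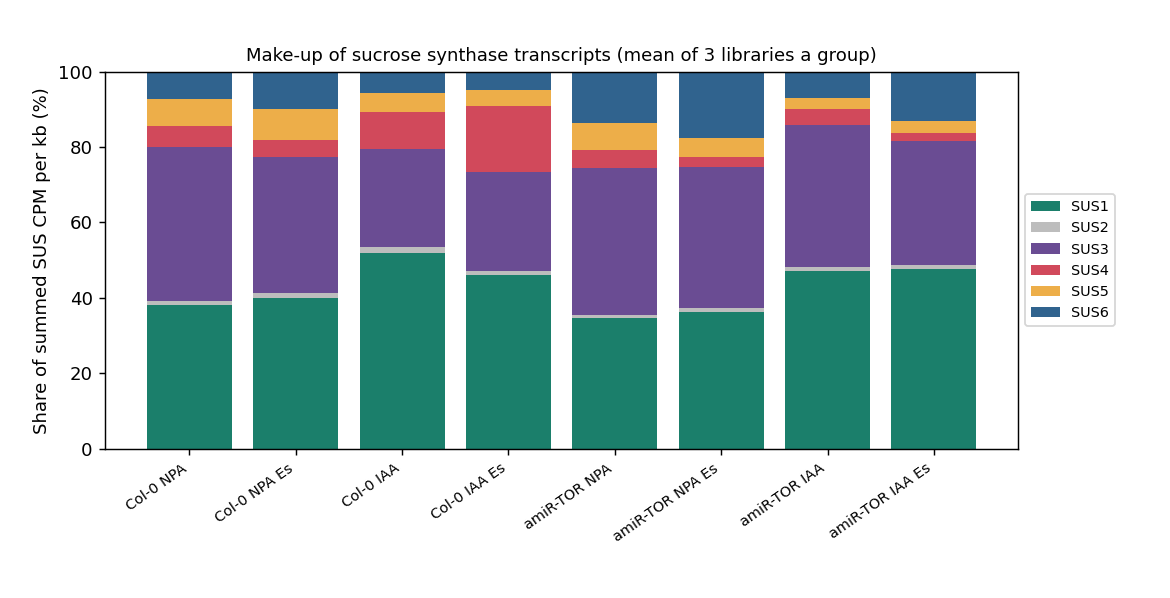
Share of each gene in the summed CPM per kb of the 6 sucrose synthases, as the mean of the 3 libraries of a group, in percent. The SUS4 band widens to 17.4% in Col-0 on IAA with estradiol and narrows to 2.05% in amiR-TOR, and SUS1 is the widest band in all IAA groups.

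The cell-wall invertase cwINV1, which splits sucrose outside the cell and so supplies hexoses to sinks, rose with IAA in each background by a similar factor. In Col-0 it had 465, 552 and 611 CPM on NPA and 1032, 1179 and 1115 CPM on IAA, and with estradiol 329, 389 and 455 CPM against 1217, 856 and 831 CPM. In amiR-TOR it had 541, 629 and 546 CPM on NPA and 1258, 1015 and 1081 CPM on IAA, and with estradiol 608, 666 and 599 CPM and 1632, 1387 and 1366 CPM. All 12 IAA libraries lay above all 12 NPA libraries. The log2 fold changes were 1.03 ± 0.15 in Col-0 and 0.97 ± 0.15 in amiR-TOR, and with estradiol 1.31 ± 0.15 and 1.23 ± 0.15, with edgeR adjusted p values from 7.96e-08 to 6.86e-06. These 4 calls stood in every alternative fit in which each group kept at least 2 libraries. The difference of the auxin response between the uninduced genotypes was -0.06, with a 95% interval of -0.47 to 0.34.

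Estradiol lowered cwINV1 in Col-0 on NPA by 0.47 ± 0.15 (edgeR adjusted p = 0.0237). This call was lost without Col-0 NPA replicate 2 or 3 or Col-0 NPA with estradiol replicate 1 or 2 (-0.47 to -0.36, edgeR adjusted p = 0.0543 to 0.137) and with only the groups compared (-0.48, edgeR adjusted p = 0.0509). The amiR-TOR values were 0.13 ± 0.15 on NPA and 0.39 ± 0.15 on IAA (edgeR adjusted p = 0.0654). The value on IAA was called with a covariate for the 5 libraries of many unmapped reads (0.46, edgeR adjusted p = 0.0215). The genotypes differed in the estradiol response by 0.60 ± 0.21 on NPA (edgeR adjusted p = 0.126) and by 0.58 ± 0.21 on IAA (edgeR adjusted p = 0.0768). Neither was called with all libraries. The difference on NPA was called without the 5 libraries of many unmapped reads (0.70, edgeR adjusted p = 0.0328). That on IAA was called without Col-0 IAA with estradiol replicate 1 (0.78, edgeR adjusted p = 0.0141) and with a covariate for the 5 libraries (0.60, edgeR adjusted p = 0.042). It was only 0.20 when those 5 were left out, with replicate 1 alone left in Col-0 IAA with estradiol. The highest cwINV1 group, amiR-TOR on IAA with estradiol at 573 ± 58.0 CPM per kb, did not overlap the next, amiR-TOR on IAA at 438 ± 49.5.

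CINV1, the main cytosolic invertase and known to be needed for root growth, was lower in 6 of the 10 direct comparisons of groups and higher in none of them. In Col-0 it had 319, 393 and 458 CPM on NPA, 317, 308 and 251 CPM with estradiol, 267, 274 and 295 CPM on IAA and 269, 277 and 294 CPM on IAA plus estradiol. The amiR-TOR libraries had 282, 290.3 and 311 CPM on NPA, 218, 204 and 229 CPM with estradiol, 277, 245 and 254 CPM on IAA and 188, 178 and 149.9 CPM on IAA with estradiol. The highest group was Col-0 on NPA and the lowest were the induced amiR-TOR groups, which did not overlap any other. Estradiol lowered CINV1 in amiR-TOR by 0.44 ± 0.12 on NPA (edgeR adjusted p = 0.0062) and by 0.59 ± 0.12 on IAA (edgeR adjusted p = 0.00136). In Col-0 it lowered CINV1 by 0.42 ± 0.12 on NPA (edgeR adjusted p = 0.0147) and gave 0.01 ± 0.12 on IAA.

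The genotype difference in the estradiol response of CINV1 was -0.59 ± 0.17 on IAA (edgeR adjusted p = 0.0272) and -0.02 on NPA, with a 95% interval of -0.35 to 0.30. The difference on IAA was lost without Col-0 IAA replicate 1, Col-0 IAA with estradiol replicate 3, amiR-TOR IAA replicate 1 or amiR-TOR IAA with estradiol replicate 3 (-0.57 to -0.50, edgeR adjusted p = 0.0545 to 0.0821). It was -0.59 without the 5 libraries of many unmapped reads. IAA lowered CINV1 in Col-0 by 0.48 ± 0.12 (edgeR adjusted p = 0.00106), and in amiR-TOR with estradiol by 0.34 ± 0.12 (edgeR adjusted p = 0.0266). The latter was lost without amiR-TOR NPA with estradiol replicate 1 or 3 or amiR-TOR IAA with estradiol replicate 3 (-0.34 to -0.25, edgeR adjusted p = 0.0589 to 0.139). In amiR-TOR without estradiol the IAA value was -0.19 ± 0.12 (edgeR adjusted p = 0.188), although the groups did not overlap. It was called with only the groups compared (-0.23, edgeR adjusted p = 0.037). Without estradiol on NPA, CINV1 was lower in amiR-TOR than in Col-0 by 0.40 ± 0.12 (edgeR adjusted p = 0.0173). Both this call and the Col-0 estradiol call rest in part on Col-0 NPA replicate 3, without which they were -0.27 (edgeR adjusted p = 0.132) and -0.29 (edgeR adjusted p = 0.134). The genotype call was also lost without amiR-TOR NPA replicate 1 (-0.37, edgeR adjusted p = 0.0668) or 2 (-0.39, edgeR adjusted p = 0.0561), and the estradiol call without Col-0 NPA with estradiol replicate 3 (-0.32, edgeR adjusted p = 0.109). With only the groups compared they were -0.37 and -0.42 (edgeR adjusted p = 0.0888 and 0.0828). The auxin response in Col-0 differed with estradiol by 0.42 ± 0.17 (edgeR adjusted p = 0.1), called without Col-0 NPA replicate 1 (0.55, edgeR adjusted p = 0.0184).

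CINV2, the less abundant cytosolic copy, rose with auxin where CINV1 fell in Col-0. It had 15.4, 12.2 and 13.1 CPM in Col-0 on NPA and 21.6, 27.3 and 22.0 CPM on IAA, a rise of 0.80 ± 0.13 (edgeR adjusted p = 1.66e-05). In amiR-TOR it went from 15.4, 17.8 and 15.5 CPM to 22.0, 21.3 and 23.6 CPM, a rise of 0.46 ± 0.13 (edgeR adjusted p = 0.00643). With estradiol the Col-0 libraries had 19.3, 17.9 and 21.1 CPM on NPA and 17.5, 13.1 and 19.6 CPM on IAA, and these overlapped (-0.21 ± 0.13, and -0.34 with edgeR adjusted p = 0.0448 without Col-0 IAA with estradiol replicate 3). The auxin response of CINV2 in Col-0 was thus smaller with estradiol by 1.01 ± 0.19 (edgeR adjusted p = 0.00239). That call stood in every alternative fit in which each group kept at least 2 libraries. In amiR-TOR the same difference was -0.13, with a 95% interval of -0.50 to 0.23, and the IAA value with estradiol was 0.32 ± 0.13 (edgeR adjusted p = 0.0534), called without amiR-TOR IAA with estradiol replicate 2 (0.39, edgeR adjusted p = 0.0401). The difference between the genotypes in it was 0.88 ± 0.26 (edgeR adjusted p = 0.148) and was not called.

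Estradiol raised CINV2 in Col-0 on NPA by 0.52 ± 0.13 (edgeR adjusted p = 0.00831), lost without Col-0 NPA with estradiol replicate 3 (0.45, edgeR adjusted p = 0.0545). Uninduced amiR-TOR differed from Col-0 on NPA by 0.26 ± 0.13, called without the 5 libraries of many unmapped reads (0.36, edgeR adjusted p = 0.0365). The genotype difference in the estradiol response on NPA, -0.58 ± 0.19, was likewise called without them (-0.69, edgeR adjusted p = 0.0217) and with only the groups compared (-0.67, edgeR adjusted p = 0.0322). Estradiol in Col-0 on IAA gave -0.49 ± 0.13 (edgeR adjusted p = 0.0755), called by DESeq2 (-0.50, DESeq2 adjusted p = 0.0181). Per kilobase, the CINV1 level was 24.6 ± 6.35 (SD, n = 3) times that of CINV2 on NPA in Col-0 and 10.0 ± 1.44 times on IAA. The ratio was lowest in amiR-TOR on IAA with estradiol, at 7.45 ± 1.04.

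**Figure D5:**
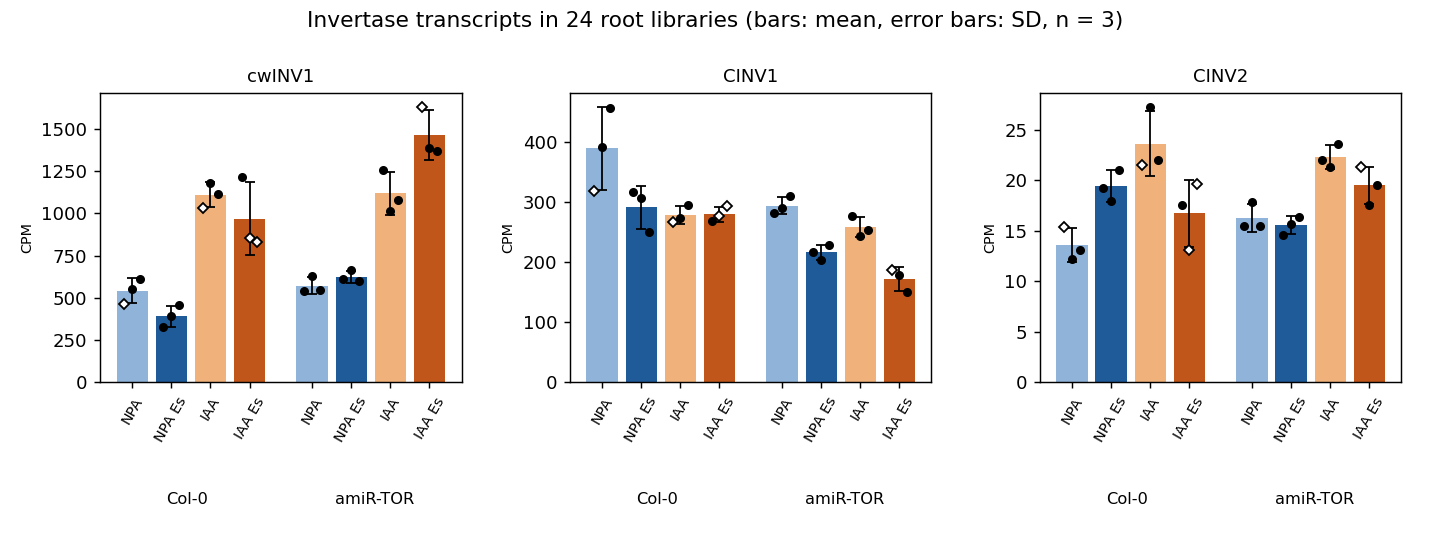
CPM of cwINV1, CINV1 and CINV2 in the 8 groups (bars, mean; error bars, SD, n = 3; dots, libraries; open diamonds, libraries with over 20% unmapped reads). cwINV1 is higher on IAA than on NPA throughout, and CINV1 is lowest in amiR-TOR on IAA with estradiol, with libraries between 149.9 and 188 CPM.

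Other genes of sucrose use were followed as lists of 38 loci, of which 31 passed the filter: the other cell-wall invertases, the vacuolar invertases, the other alkaline or neutral invertases, invertase inhibitors, sucrose synthesis, and hexose kinases with UDP-glucose pyrophosphorylases. IAA raised 7 and lowered 13 of the 31 in Col-0, with a median of -0.24, beside 31.3% and 32% of all loci. It raised 7 and lowered 10 in amiR-TOR, with a median of -0.19, beside 29.3% and 23.5%. Both vacuolar invertases, which split the sucrose stored in the vacuole, fell with IAA in all 4 backgrounds, where SUS1 and cwINV1 rose. VIN2 fell from 104, 101 and 118 CPM on NPA to 22.8, 30.5 and 31.8 CPM on IAA in Col-0, by 1.92 ± 0.11 (edgeR adjusted p = 9.15e-13). Locus AT1G62660, annotated as a family 32 glycosyl hydrolase, fell by 1.39 ± 0.17 (edgeR adjusted p = 1.84e-07). The fall of VIN2 was smaller in uninduced amiR-TOR than in Col-0 by 0.66 ± 0.15 (edgeR adjusted p = 0.0233). CVIF2, a protein that inhibits invertases, rose with IAA in Col-0 by 1.64 ± 0.19 (edgeR adjusted p = 9.47e-08), from 4.54, 4.22 and 6.38 CPM to 14.9, 14.3 and 17.4 CPM. In induced amiR-TOR the IAA value of CVIF2 was 0.18 ± 0.19. CVIF2 thus resembled SUS4 in that estradiol lowered it on IAA in amiR-TOR, by 0.92 ± 0.19 (edgeR adjusted p = 0.00147).

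Estradiol on NPA raised 5 and lowered 1 of the 31 in Col-0, beside 12.4% and 9.3% of all loci, and raised 6 and lowered 4 in amiR-TOR, beside 20% and 13%, so the amiR-TOR counts were at the background. On IAA it raised 7 and lowered 5 in amiR-TOR, beside 8.99% and 9.9%, with a median of 0.23, and the median in Col-0 was 0.01. The genes with the largest changes on NPA in amiR-TOR were AT3G59480, a pfkB-like carbohydrate kinase (-1.14 ± 0.31), AT1G62660 (-0.64 ± 0.17) and UGP1 (0.63 ± 0.11, edgeR adjusted p = 0.000217). UGP1 makes or uses UDP-glucose, the product of sucrose synthase. It also rose with estradiol in Col-0 on NPA by 0.48 ± 0.11 (edgeR adjusted p = 0.00503), and the genotypes differed in its response on IAA by 0.81 ± 0.16 (edgeR adjusted p = 0.00329). Between the uninduced genotypes on NPA, SPP1, a sucrose phosphatase of sucrose synthesis, was higher in amiR-TOR by 0.66 ± 0.14, AT1G66430, another pfkB-like kinase, by 0.63 ± 0.13, and the hexokinase HXK3 by 0.43 ± 0.14, all called.

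Across the 24 libraries the genes of the family differed in the loci whose pattern was most like theirs, measured as Pearson r of log2(CPM + 1) and given as a description. The libraries share their treatments, so loci that answer to auxin or to induction rank high for that reason alone. The closest loci were AT2G25270 for SUS1 (r = 0.97), PRS2 for SUS2 (0.93), UGT89B1 for SUS3 (0.85) and UXS4, a UDP-xylose synthase, for SUS6 (0.95). For cwINV1 the closest was VIK, a protein kinase (0.97), and for CINV1 it was AT2G17710 (0.97), followed by CP12-1, a regulator of the Calvin cycle (0.95). CP12-1 fell from a mean of 162 CPM in Col-0 on NPA to 14.6 CPM in induced amiR-TOR on IAA, and the leaf gene RBCS1A was also lowest there, as CINV1 was. The 3 shoot genes followed, RBCS1A, LHCB1.1 and LHCB2.1, summed to 2.66 to 4.29 CPM in that group. On IAA without estradiol these sums were higher in amiR-TOR than in Col-0, 33.4 to 48.3 against 19.1 to 29.0 CPM. The CINV1 difference there was -0.11 and not called, so the 2 patterns were alike only in part. The part of residual shoot or green tissue in the CINV1 values was not tested. CINV2 had IAA6, an auxin response repressor, as its closest locus (0.80), and SUS5 had APX5, an ascorbate peroxidase (0.75). Among the 9 genes, r was 0.80 between SUS1 and SUS2 and between SUS1 and cwINV1, 0.52 between SUS1 and its copy SUS4, and -0.52 between SUS4 and SUS6.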

How the data were processed

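Root RNA was sequenced in 24 libraries, 3 in each of 8 groups. The authors deposited, per library, raw read counts per locus in the layout of STAR gene counts, without normalization. STAR 2.5.2b, DESeq2 and TAIR10 are named in the submitters' processing notes, with no role given. The strand column that held 95.4 to 96.3% of the stranded gene counts was used, and the 4 summary lines were left out of library sizes. Library totals of 8589833 to 40494513 set the precision.

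edgeR 4.0.16 (R 4.3.3) was run with filterByExpr, TMM scaling and a robust quasi-likelihood fit over all 24 libraries, 1 mean per group. This left 21290 of 32833 loci, and p-values were adjusted by Benjamini-Hochberg per comparison over all of them. SE is the log2 fold change divided by the square root of F. The fit was tested on simulated counts. Alternatives were RLE size factors, no filter, DESeq2 1.42.0, unstranded counts, a replicate block, a covariate for or removal of the 5 libraries over 20% unmapped, only the groups compared, and leaving out each library. The labels do not say that equal replicate numbers belong together, so libraries were not paired in the main fit. The members and lists were chosen with earlier results of these data known. All 9 members are named. From the sucrose lists, the 3 called loci with the largest change and a mean of at least 1 CPM are named in each of 3 comparisons, with the 2 loci most like each member. LBD41, PCO1, ADH1 and the phloem genes printed, and values of listed genes in other comparisons, were picked from the lists after their values were seen. The treatment text in the labels also speaks of another time course, which was not used.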

Additional observations from a re-analysis of the deposited data

Results flagged for a closer look

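The difference between genotypes or treatments was itself tested, and passed the threshold, for 8 values. In the estradiol response on IAA, amiR-TOR differed from Col-0 for SUS4 by -2.17 ± 0.30 (log2, SE), for SUS6 by 0.84 ± 0.25 and for CINV1 by -0.59 ± 0.17. In the auxin response of Col-0, libraries with estradiol differed from those without for SUS4 by 0.92 ± 0.30 and for CINV2 by -1.01 ± 0.19. In the auxin response of amiR-TOR the same difference was -0.60 ± 0.18 for SUS1, -1.21 ± 0.37 for SUS2 and -0.68 ± 0.19 for SUS3. The SUS4 difference between genotypes and the CINV2 difference in Col-0 were called in every alternative fit in which each group kept at least 2 libraries. Each of the other 6 was lost in at least 4 of the fits that leave out 1 library.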

How the results depend on the processing

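Of 144 values (9 genes in 16 comparisons), 46 were called. Of these, 29 were called in every alternative and 17 were lost in at least 1, and 0 changed sign. Of the 98 values not called, 17 were called in at least 1 alternative. RLE size factors, DESeq2 and the covariate for unmapped reads lost 0 calls each, no filter 3, unstranded counts 3, removing the 5 libraries with many unmapped reads 5, and fitting only the groups compared 9. Removing the 5 libraries left 1 library in Col-0 IAA with estradiol, so results of that group there rest on 1 library. No scaling moved the median of all loci by over 0.1.

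The number of the 9 genes called moved as follows. For estradiol in Col-0 on NPA it was 3 in place of 5 with only the groups compared. For estradiol in Col-0 on IAA it was 2 with DESeq2 in place of 1. Of all loci DESeq2 called 576 there and edgeR 218. No count is given there without the libraries with many unmapped reads, since 1 library was left with estradiol. For amiR-TOR against Col-0 on NPA it was 1 in place of 2 with only the groups compared. For the genotype difference in the estradiol response on NPA it was 2 without the libraries with many unmapped reads (CINV2 -0.69 and cwINV1 0.70) and 1 with only the groups compared, in place of 0. For the auxin difference by estradiol it was 1 in place of 2 in Col-0 with no filter, and 1 in place of 3 in amiR-TOR with only the groups compared. For the 3-way difference DESeq2 called 1 in place of 0, and 373 of all loci in place of 153.

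Leaving out 1 library gave 6 to 7 genes called for IAA in Col-0, 3 to 5 with estradiol, 6 to 6 in amiR-TOR and 2 to 4 with estradiol. It gave 2 to 5 for estradiol in Col-0 on NPA, 0 to 1 on IAA, and 4 to 5 and 3 to 3 in amiR-TOR. Between uninduced genotypes it gave 1 to 2 on NPA and 2 to 3 on IAA. For the differences between responses it gave 0 to 0 and 1 to 3 for genotype by estradiol on NPA and IAA, 1 to 3 and 0 to 3 for auxin by estradiol in Col-0 and amiR-TOR, 0 to 1 for genotype by auxin and 0 to 1 for the 3-way difference.

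Libraries with the same replicate number did not deviate together: over 84 pairs r ran from -0.38 to 0.31, with a median of 0.00205, and 18 pairs were over 0.1. With the replicate number as a block, 4 calls were lost. The count for auxin by estradiol in Col-0 was then 1 in place of 2, that for IAA in Col-0 6, and those for genotype by estradiol on IAA and auxin by estradiol in amiR-TOR 2 each. SUS2 and SUS5 had the fewest counts, from 15 and 57 a library, and SEs of 0.24 to 0.28 in the 10 direct comparisons of groups, wider than those of the other 7 genes.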
